A study of Mus musculus with 14 samples.

Results

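Desmosomal genes were followed in skin cells of newborn mice that make p63 with or without its alpha ending. The 10 genes were taken by name: the desmogleins Dsg1a, Dsg1b and Dsg3, the desmocollins Dsc1, Dsc2 and Dsc3, plakoglobin (Jup), the plakophilins Pkp1 and Pkp3, and desmoplakin (Dsp). They are 10 of 27179 genes in the table of cultured keratinocytes and 10 of 24411 genes in the table of epidermis, and all 10 passed the filter on low counts in both. The p63beta genotype was KRT14-Cre; Trp63-Ex13fl/fl, and the p63alpha genotype was Trp63-Ex13fl/fl without Cre, so that both carried the floxed Trp63 alleles. The Cre is driven by the KRT14 promoter and acts in cells that use it, the keratinocytes of the basal layer and their progeny. Each genotype had 3 libraries of primary keratinocytes grown in low-calcium medium and 4 libraries of epidermis, all from newborns. Separate animals are not stated in the labels, so every p-value reflects variation among these libraries, which may be technical.

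Desmosomes are junctions that rivet neighbouring epidermal cells together. Desmogleins and desmocollins are calcium-dependent cadherins whose outer parts bind those of the next cell. Inside the cell, plakoglobin and the plakophilins join the cadherin tails to desmoplakin, which holds the keratin filaments. In stratified epidermis, Dsg3 and Dsc3 belong mainly to the lower layers and Dsg1 and Dsc1 to the upper, differentiating ones. The transcription factor p63 is needed to build this epithelium, and several desmosomal genes have been described as its targets.

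Sequence is shown for the 2 Pkp3 transcripts and for the promoters of Dsp and Jup. The 2 Pkp3 transcripts in the epidermis table start translation in different exons on mouse chromosome 7 (GRCm38, plus strand), which gives proteins of 822 and 797 residues. The start of each coding sequence follows. Capitals mark the bases before the 2 sequences become identical (109 and 34 bases), and the first 60 identical bases are in lower case. This is a match of letters, so the change of case need not fall on an exon boundary.
Pkp3 NM_001162924: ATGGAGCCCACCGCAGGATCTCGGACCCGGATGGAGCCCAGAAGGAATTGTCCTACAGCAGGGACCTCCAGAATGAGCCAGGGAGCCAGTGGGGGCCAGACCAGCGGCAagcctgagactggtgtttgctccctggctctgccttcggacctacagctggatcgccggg
Pkp3 NM_019762: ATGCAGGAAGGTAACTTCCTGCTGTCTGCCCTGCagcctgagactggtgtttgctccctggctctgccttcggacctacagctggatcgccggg
Of the 10 genes, Dsp and Jup had a promoter in the RefSeq table (GRCm38.p6, 250 bases before to 50 bases after the start). Both were searched on both strands for the p53-family half-site, the element to which p53, p63 and p73 bind, and for the 4-base word CATG at the centre of many such sites, which may lie within a half-site. The Dsp promoter (chr13:38151044-38151343, plus strand) held 1 half-site, in capitals, and the Jup promoter (chr11:100397741-100398040, minus strand) held none.
Dsp promoter: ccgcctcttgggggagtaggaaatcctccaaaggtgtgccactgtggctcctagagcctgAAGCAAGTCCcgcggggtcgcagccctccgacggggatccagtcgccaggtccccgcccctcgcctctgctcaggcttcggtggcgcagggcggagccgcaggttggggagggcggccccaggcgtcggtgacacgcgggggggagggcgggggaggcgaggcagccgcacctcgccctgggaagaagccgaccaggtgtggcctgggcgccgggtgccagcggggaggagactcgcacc
Jup promoter: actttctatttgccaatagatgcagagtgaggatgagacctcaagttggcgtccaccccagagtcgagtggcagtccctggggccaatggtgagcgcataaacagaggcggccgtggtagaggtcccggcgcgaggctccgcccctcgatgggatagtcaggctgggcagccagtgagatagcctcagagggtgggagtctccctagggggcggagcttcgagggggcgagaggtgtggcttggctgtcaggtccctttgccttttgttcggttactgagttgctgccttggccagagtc
Half-sites were found in 8.36% of 32851 promoters of the same length, and CATG, which neither of these 2 promoters held, in 61.1%. A match describes the letters and is no evidence of binding.

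Keratinocyte libraries held 20688027 to 30066041 read pairs and epidermis libraries 21290068 to 44909629 estimated counts. Transcripts of Trp63 itself check the labels of the epidermis libraries. In epidermis, the transcript NM_011641, whose annotated match holds exon 13 (94 bases, chr16:25886206-25886299, mm10), was listed at 0 TPM in all 4 p63beta libraries, against 37.5 to 107 TPM in p63alpha libraries. A further transcript with that exon, NM_001127264, had 6.16 to 19.6 TPM in p63beta and 30.7 to 116 TPM in p63alpha epidermis. NM_001127262, which the annotation pairs with the same GENCODE transcript as NM_011641, was not used here. The check rests on NM_011641 and NM_001127264 alone, and values of other Trp63 transcripts are not given. The keratinocyte table has no transcript values, and total Trp63 there was 364 ± 24.3 CPM in p63beta and 183 ± 8.13 CPM in p63alpha cells (SD, n = 3 each). Keratinocyte markers had a summed level of 22033 to 29664 CPM in p63beta and 22346 to 34911 CPM in p63alpha keratinocytes, and of 102810 to 140670 CPM in p63beta and 86575 to 156790 CPM in p63alpha epidermis. The library p63beta keratinocytes replicate 3 stood apart, because 8 of 9 heart muscle markers peaked in it. Their summed level was 3289 CPM there, 211 and 144 CPM in the other p63beta libraries and 105 to 207 CPM in p63alpha libraries, and none of the 9 was at 0 in a keratinocyte library. Of the fibroblast markers, 5 of 6 also peaked in that library, with a summed level of 213 CPM there, 45.2 and 92.2 CPM in the other p63beta libraries and 37.9 to 164 CPM in p63alpha libraries. So did 3 of 4 endothelium markers, at 30.5 CPM there, 13.1 and 10.6 CPM in the other p63beta libraries and 4.58 to 11.3 CPM in p63alpha libraries. Melanocyte markers summed to 784 to 966 CPM in p63beta and 409 to 1543 CPM in p63alpha keratinocytes, and all 5 were highest in p63alpha replicate 3. The part of these other cell types in the results was not tested. Heart muscle also uses Dsp, Jup and Dsc2, so the keratinocyte fold change of each member is given with and without p63beta replicate 3. The other gene lists are given with it alone.

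In cultured keratinocytes, the desmosomal genes stood mostly below their p63alpha levels in p63beta cells, by small amounts. Of the 10 genes, 9 had a negative log2 fold change (p63beta over p63alpha) and Dsp a positive one. The median was -0.26, against -0.0013 over the 13820 genes tested. None of the 10 was called by edgeR's quasi-likelihood test at a Benjamini-Hochberg adjusted p under 0.05, which called 0.101% of all genes tested, and 3 had an unadjusted p under 0.05 (Dsc2, Dsc3 and Pkp1), as did 6.85% of all genes tested. With the replicate number as a block, 0.268% of genes were called, again none of the 10, and 6 of them had an unadjusted p under 0.05 (Dsg1a, Dsg1b, Dsc2, Dsc3, Pkp1 and Pkp3), as did 12.9% of all genes in that fit. DESeq2 called Dsc2 and Pkp1, and 1.57% of the 13765 genes to which it gave an adjusted p. Limma on log2 FPKM called no member. Without p63beta replicate 3, 8 of the values were negative and 2 positive, with a median of -0.31. In that edgeR fit no member was called, and 3 had an unadjusted p under 0.05, as did 3.71% of all genes tested. In bulk RNA, a smaller share of cells that express a gene and less RNA per cell cannot be told apart.

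**Figure D1:**
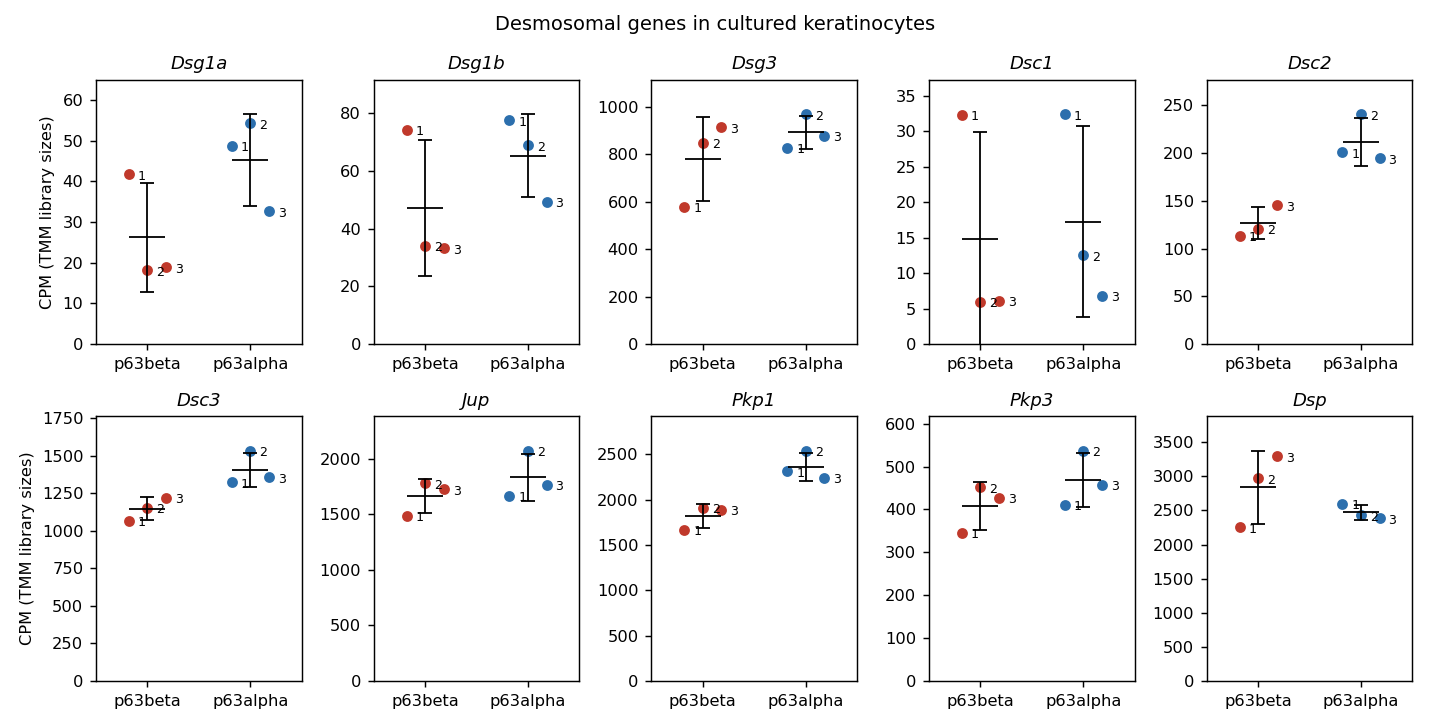
Level of each desmosomal gene in CPM (counts scaled to TMM library sizes) in 3 p63beta and 3 p63alpha keratinocyte libraries; points are libraries, numbered by replicate, and bars are mean ± SD. Every p63beta library lies below every p63alpha library for Dsc2, Dsc3 and Pkp1, and replicate 1 of both genotypes is highest in Dsc1, at 32.3 CPM in p63beta and 32.4 CPM in p63alpha.

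Of the 3 desmocollins, Dsc2 and Dsc3 had separate groups in keratinocytes. All 6 cadherin genes lie together on mouse chromosome 18 in mm10, the desmocollins on the minus strand and the desmogleins on the plus strand. Dsc2, a desmocollin found widely in epithelia and in heart, spans 20030798 to 20059505. In keratinocytes, it had 114, 121 and 145 CPM in p63beta libraries, against 201, 241 and 194 CPM in p63alpha libraries. The groups did not overlap, and the p63beta mean was 59.7% of the p63alpha mean. Its log2 fold change of -0.74 ± 0.13 (SE) had an edgeR adjusted p of 0.245, or 0.125 with the replicate block. The p63beta library was the lower in 3 of 3 same-numbered pairs, which follows from the separate groups. The authors' deposited table gives a shrunken log2 fold change of -0.67 and an adjusted p of 2.62e-04 for Dsc2, in a comparison that calls 1.5% of its genes. DESeq2 run here gave an adjusted p of 2.52e-04. Without p63beta replicate 3, the highest p63beta library for Dsc2, the log2 fold change was -0.87 ± 0.14 (edgeR adjusted p 0.516).

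Dsc3, the main desmocollin of basal keratinocytes, lies beside it at 19960930 to 20002097. It had 1067, 1152 and 1220 CPM in p63beta keratinocytes, against 1325, 1533 and 1357 CPM in p63alpha keratinocytes. The groups were again separate, with a log2 fold change of -0.29 ± 0.11 and an edgeR adjusted p of 0.658, or 0.284 with the block. Without p63beta replicate 3 it was -0.35 ± 0.14. In epidermis, Dsc3 had 716, 692, 642 and 665 CPM in p63beta libraries, against 957, 895, 925 and 1000 CPM in p63alpha libraries. By CPM, it was the one member whose groups were separate both in keratinocytes and in epidermis. By FPKM in keratinocytes and TPM in epidermis, those of Pkp1 were separate in both as well. The p63beta mean of Dsc3 in epidermis was 71.9% of the p63alpha mean in CPM. Its log2 fold change there was -0.48 ± 0.14 (unadjusted p 0.00583, edgeR adjusted p 0.506). The authors' deposited table calls Dsc3 in epidermis, with an adjusted p of 0.00660 where 0.896% of genes are called, and DESeq2 run here gave 0.0157. With the column-name prefix of the library as a term, the value was -0.48 ± 0.12 (edgeR adjusted p 0.330). In the 6 libraries of one prefix it was -0.44 ± 0.15 (edgeR adjusted p 0.923), and the other prefix has 1 library per genotype, with 665 CPM in p63beta and 1000 CPM in p63alpha. The summed level of melanocyte markers was also separate in these libraries. Of single markers, Dct, Tyrp1 and Mlana were separate, with p63beta higher, and Pmel and Tyr overlapped. That order was seen for 1.88% of all tested genes in epidermis. The sum was 294 to 431 CPM in p63beta and 106 to 234 CPM in p63alpha epidermis, with positive values for 5 of 5 markers and none called. The part of these markers in the Dsc3 result was not tested.

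Dsc1, the desmocollin of the upper layers, was low in culture. It had 32.3, 5.98 and 6.13 CPM in p63beta keratinocytes, against 32.4, 12.5 and 6.85 CPM in p63alpha keratinocytes. Replicate 1 was the highest library in both genotypes, and the groups overlapped. The log2 fold change was -0.22 ± 0.85 without the block and -0.40 ± 0.23 with it (edgeR adjusted p 0.985 and 0.541). Leaving out p63beta replicate 3 turned the unblocked value to 0.14 ± 0.89. In epidermis, Dsc1 was abundant, at 1356 ± 164 CPM in p63beta and 1504 ± 317 CPM in p63alpha (SD, n = 4 each). There the log2 fold change was -0.15 ± 0.20 (edgeR adjusted p 0.9999), and the p63alpha group had its own low library, at 1033 CPM. Dsc2 was scarce in epidermis, at 6.23 to 15.6 CPM in p63beta and 5.08 to 27.4 CPM in p63alpha, and its log2 fold change of -0.06 ± 0.49 had no settled sign across the alternatives tried.

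The desmogleins differed less clearly. Dsg1a and Dsg1b are the mouse genes for desmoglein 1, the desmoglein of the differentiated layers, at 20310873 to 20343353 and 20376835 to 20409741. Dsg1a had 41.7, 18.2 and 18.8 CPM in p63beta keratinocytes, against 48.7, 54.3 and 32.6 CPM in p63alpha keratinocytes. Dsg1b had 74.3, 34.1 and 33.2 CPM in p63beta, against 77.5, 68.8 and 49.4 CPM in p63alpha keratinocytes. For both genes replicate 1 of p63beta lay among the p63alpha libraries and the other p63beta libraries were about level. The log2 fold changes were -0.78 ± 0.38 for Dsg1a and -0.47 ± 0.36 for Dsg1b (edgeR adjusted p 0.763 and 0.900). They were -0.86 ± 0.27 and -0.54 ± 0.19 with the block (edgeR adjusted p 0.319 and 0.363 with the block). Replicate 1 of p63beta weighed most on both: without it they were -1.29 ± 0.24 and -0.96 ± 0.21 (unadjusted p 0.00248 and 0.00494, edgeR adjusted p 0.256 and 0.311). In that fit 5 members had an unadjusted p under 0.05, as did 9.56% of all genes tested. They were Dsg1a, Dsg1b, Dsc2, Pkp1 and, with a positive value, Dsp. Without p63beta replicate 3 the values were -0.61 ± 0.40 for Dsg1a and -0.28 ± 0.36 for Dsg1b. With any 1 library left out they ranged from -1.29 to -0.59 for Dsg1a and from -0.96 to -0.28 for Dsg1b. Of 75-base windows in the Dsg1b transcript, 37.5% also occur in Dsg1a, and 26.0% of those in Dsg1a occur in Dsg1b, so the split of reads between these genes is uncertain. Genes of late differentiation were highest in replicate 1 of both genotypes, as Dsg1b and Dsc1 were, whereas Dsg1a was highest in replicate 2 of p63alpha. Their summed level was 2425 CPM in p63beta replicate 1 and 2317 CPM in p63alpha replicate 1, against 962 to 986 CPM in the other p63beta and 987 to 1356 CPM in the other p63alpha libraries. Their part in the Dsg1a, Dsg1b and Dsc1 values was not tested.

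Dsg3, the desmoglein of the basal layer and the antigen of pemphigus vulgaris, spans 20510304 to 20541310. It had 580, 849 and 915 CPM in p63beta keratinocytes, against 829, 969 and 879 CPM in p63alpha keratinocytes. Replicate 1 of p63beta was the low library and the groups overlapped, with a log2 fold change of -0.19 ± 0.18 (edgeR adjusted p 0.928), or -0.33 ± 0.21 without p63beta replicate 3. In epidermis, Dsg3 had 45.1 to 151 CPM in p63beta and 21.95 to 88.2 CPM in p63alpha libraries. The epidermal log2 fold change was 0.43 ± 0.44. It was 0.077 ± 0.44 without the p63beta library EP11, 0.14 without the p63alpha library WT3 and 0.17 ± 0.38 in the libraries with EP column names alone. The values of Dsg1a and Dsg1b in epidermis were -0.29 ± 0.19 and -0.10 ± 0.14 (edgeR adjusted p 0.9999 for each).

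Among the plaque proteins, Pkp1 stood apart in culture. Pkp1, a plakophilin that stabilises desmosomes in the suprabasal layers, lies on chromosome 1 (135871395 to 135919024, minus strand). It had 1670, 1910 and 1887 CPM in p63beta keratinocytes, against 2315, 2538 and 2240 CPM in p63alpha keratinocytes. The groups did not overlap, and the log2 fold change was -0.38 ± 0.11 with an edgeR adjusted p of 0.534, or 0.207 with the block. The authors' deposited table calls it with a shrunken log2 fold change of -0.37 and an adjusted p of 0.0197, and DESeq2 run here gave 0.0188. Without p63beta replicate 3 the value was -0.41 ± 0.14. In epidermis, Pkp1 averaged 3314 ± 535 CPM in p63beta and 3365 ± 424 CPM in p63alpha (SD, n = 4 each), and the log2 fold change was -0.02 ± 0.18. On the deposited TPM scale, the epidermal groups for Pkp1 were separate, at 1075 to 1223 TPM in p63beta and 1241 to 1292 TPM in p63alpha. That scale shifted the median of all genes by -0.09 on the log2 scale, and the Pkp1 difference on it was -0.13 ± 0.12 (limma adjusted p 0.9995).

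Jup, Pkp3 and Dsp gave smaller differences. Jup, which binds the cadherin tails and also serves adherens junctions, had 1488, 1778 and 1726 CPM in p63beta keratinocytes, against 1667, 2071 and 1765 CPM in p63alpha keratinocytes. Pkp3, a plakophilin present in all epidermal layers, had 346, 452 and 428 CPM in p63beta, against 411, 536 and 458 CPM in p63alpha keratinocytes. For both genes the groups overlapped. The p63beta library was the lower in 3 of 3 same-numbered pairs, for Jup in pair 3 with a log2 ratio of -0.032. All members except Dsg3 and Dsp had that order, and its share over all genes was not computed. The log2 fold changes were -0.14 ± 0.13 for Jup and -0.20 ± 0.15 for Pkp3, and the standard errors with the block were 0.08 and 0.07 (edgeR adjusted p 0.537 and 0.376 with the block). Without p63beta replicate 3 they were -0.18 ± 0.17 for Jup and -0.24 ± 0.19 for Pkp3. Dsp, the plakin that anchors keratin, had 2250, 2973 and 3291 CPM in p63beta keratinocytes, against 2594, 2428 and 2387 CPM in p63alpha keratinocytes. It was the one member with a positive value in culture, 0.20 ± 0.16, and 0.07 ± 0.17 without p63beta replicate 3, its highest library. In epidermis the log2 fold changes were 0.15 ± 0.17 for Jup, 0.27 ± 0.23 for Pkp3 and -0.0050 ± 0.18 for Dsp (edgeR adjusted p 0.9999 for each). Without the p63beta library KO2, that of Pkp3 was 0.030 ± 0.19.

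**Figure D2:**
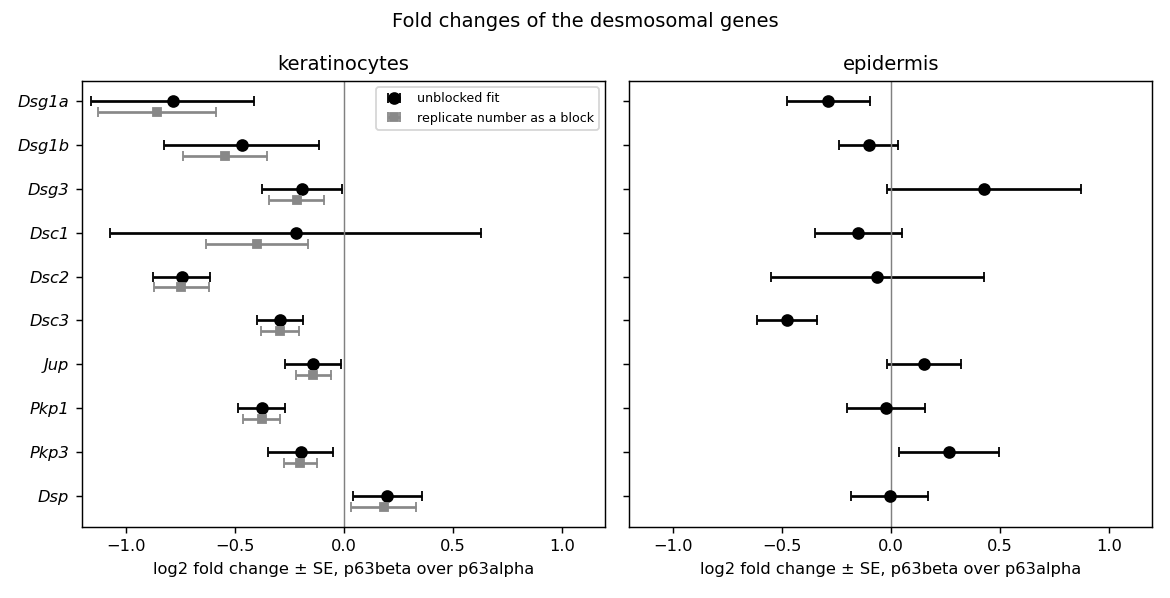
Log2 fold change of p63beta over p63alpha with its standard error for each gene (rows), in keratinocytes at left, without (black) and with (grey) the replicate number as a block, and in epidermis at right. In keratinocytes 9 of 10 values lie below 0, with a median of -0.26; in epidermis 7 of 10 do, with a median of -0.04.

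In epidermis, the members had a median near 0, with values of both signs. They ranged from -0.48 for Dsc3 to 0.43 for Dsg3. Values were negative for 7 of the 10 and positive for Dsg3, Jup and Pkp3, and their median was -0.04, against -0.0039 over the 13796 genes tested. None of them was called by edgeR, which called 0.232% of genes, and Dsc3 alone had an unadjusted p under 0.05, as did 4.64% of all genes tested. DESeq2 called 1 member, Dsc3, and 0.985% of the 15741 genes to which it gave an adjusted p, and limma on log2 TPM called no member. By CPM, all p63beta libraries lay below all p63alpha libraries for 3 of the 10 genes in keratinocytes, where 5.8% of all tested genes did so. They did for 1 of 10 in epidermis, where 1.19% of genes did. The reverse order was seen for 0 members in both, against 6.51% of genes in keratinocytes and 1.88% in epidermis.

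**Figure D3:**
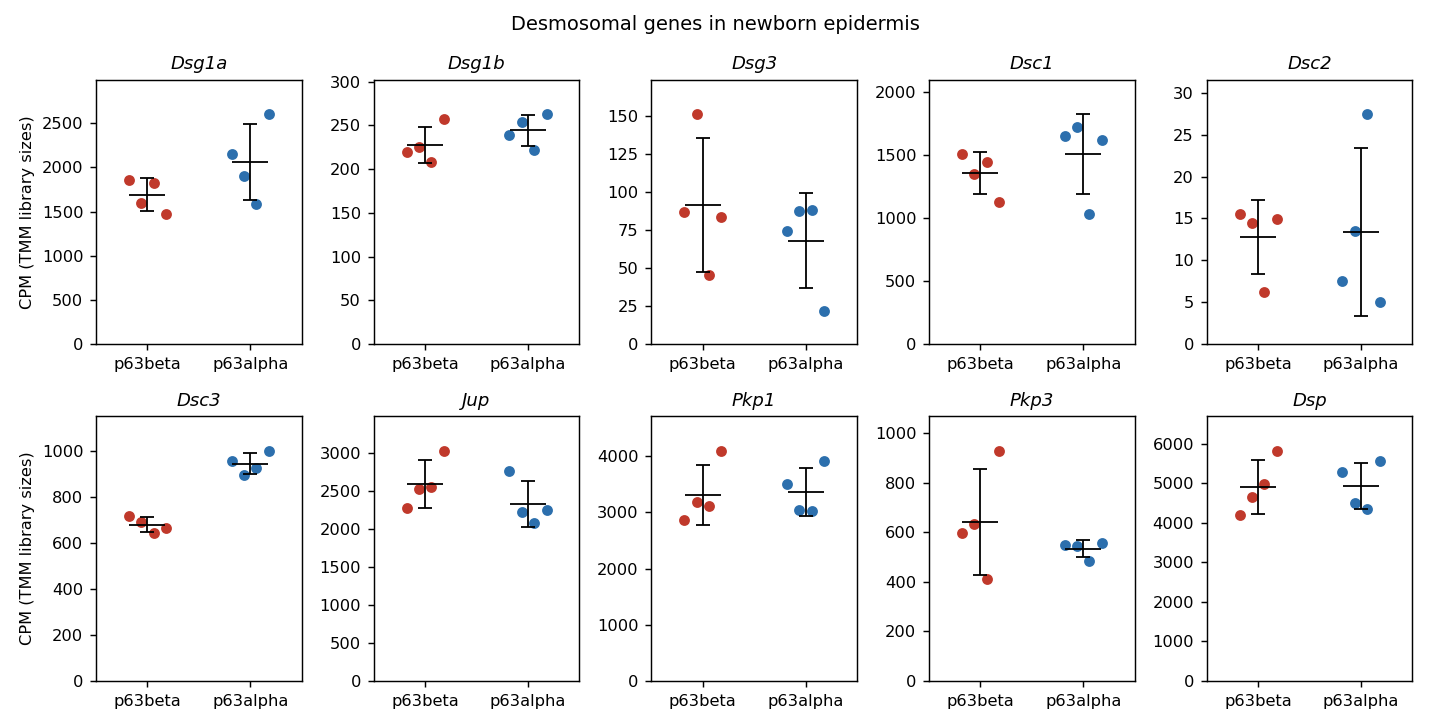
Level of each desmosomal gene in CPM in 4 p63beta and 4 p63alpha epidermis libraries; points are libraries and bars are mean ± SD. Dsc3 is the one panel in which the groups are separate, with 642 to 716 CPM in p63beta and 895 to 1000 CPM in p63alpha.

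Whether the genotype effect differed between epidermis and keratinocytes was tested with an interaction term over 14734 genes. The edgeR fit called 0% of these genes at an adjusted p under 0.05, and 4.2% of them (619) had an unadjusted p under 0.05, none a member. For 8 of the 10 members the effect was more positive in epidermis than in keratinocytes, with a median difference of 0.38 on the log2 scale, against 0.01 over all genes. The difference was 0.71 ± 0.63 for Dsc2 and 0.37 ± 0.23 for Pkp1. For Dsc3 it was -0.17 ± 0.17, and for Dsp -0.19 ± 0.25. Single libraries moved these differences. Without p63beta keratinocytes replicate 1 the difference was 1.02 ± 0.32 for Dsg1a, 0.87 ± 0.24 for Dsg1b and 1.37 ± 0.59 for Dsc1 (unadjusted p 0.00757, 0.00318 and 0.0375, the lowest edgeR adjusted p being 0.566 for Dsg1b). Without the p63alpha epidermis library EP09 it was 1.31 ± 0.48 for Dsc2 (unadjusted p 0.0172). Without the p63beta epidermis library EP12 it was 0.65 ± 0.26 for Pkp3 (unadjusted p 0.0279). Of all genes, 5.72% had an unadjusted p under 0.05 without p63beta keratinocytes replicate 1, 3.69% without EP09 and 6.05% without EP12. These fits were picked from 14 leave-outs because a member passed that level in them, and no member did in the others. None of the members was called in any of these fits. A missed threshold does not show that the effects were alike in the 2 kinds of sample.

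The make-up of the junction mRNA was described on the scales that allow for gene length, FPKM in keratinocytes and TPM in epidermis, as shares within each library. Among the 6 cadherin genes of the set, different ones led in the 2 kinds of sample, in both genotypes. Dsg2, a desmoglein outside the set, was not counted. Its mean was 82.1 CPM in p63beta and 99.3 CPM in p63alpha keratinocytes, and 43.7 CPM in p63beta and 51.5 CPM in p63alpha epidermis. Dsg3 made up 90.4% ± 6.56 of the FPKM of Dsg1a, Dsg1b and Dsg3 in p63beta and 88.9% ± 2.41 in p63alpha keratinocytes (SD, n = 3 each). In epidermis Dsg3 made up 5.80% ± 2.81 of their TPM in p63beta and 3.92% ± 2.12 in p63alpha libraries (SD, n = 4 each). Dsc3 made up 86.9% ± 1.39 of desmocollin FPKM in p63beta and 83.4% ± 1.31 in p63alpha keratinocytes, while in epidermis Dsc1 led, with 67.5% ± 2.76 of desmocollin TPM in p63beta and 62.0% ± 5.86 in p63alpha. Within keratinocytes, the share of Dsc2 was 10.9% to 12.5% in p63beta and 14.6% to 15.7% in p63alpha libraries, with no overlap. The summed FPKM of the 6 cadherin genes was 1.46 to 1.73 times that of Dsp in p63beta keratinocytes, against 1.99 to 2.42 times in p63alpha keratinocytes. In epidermis this ratio overlapped, at 1.19 to 1.99 in p63beta and 1.69 to 2.05 in p63alpha. The ratio of Pkp1 to Dsp likewise did not overlap in keratinocytes, 1.23 to 1.59 in p63beta and 1.91 to 2.24 in p63alpha, and did in epidermis. These shares and ratios combine values already given and were not tested. Of single genes in keratinocytes, 5.8% had all p63beta libraries below all p63alpha libraries and 6.51% had them all above. No such background was computed for ratios. The library with high heart muscle markers, p63beta replicate 3, had the lowest value of both ratios, 1.46 and 1.23. Its Dsp was the highest in keratinocytes, at 335 FPKM, and its Dsc2 share, 12.5%, was the highest in p63beta. Without it the groups remained apart in that share and both ratios.

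**Figure D4:**
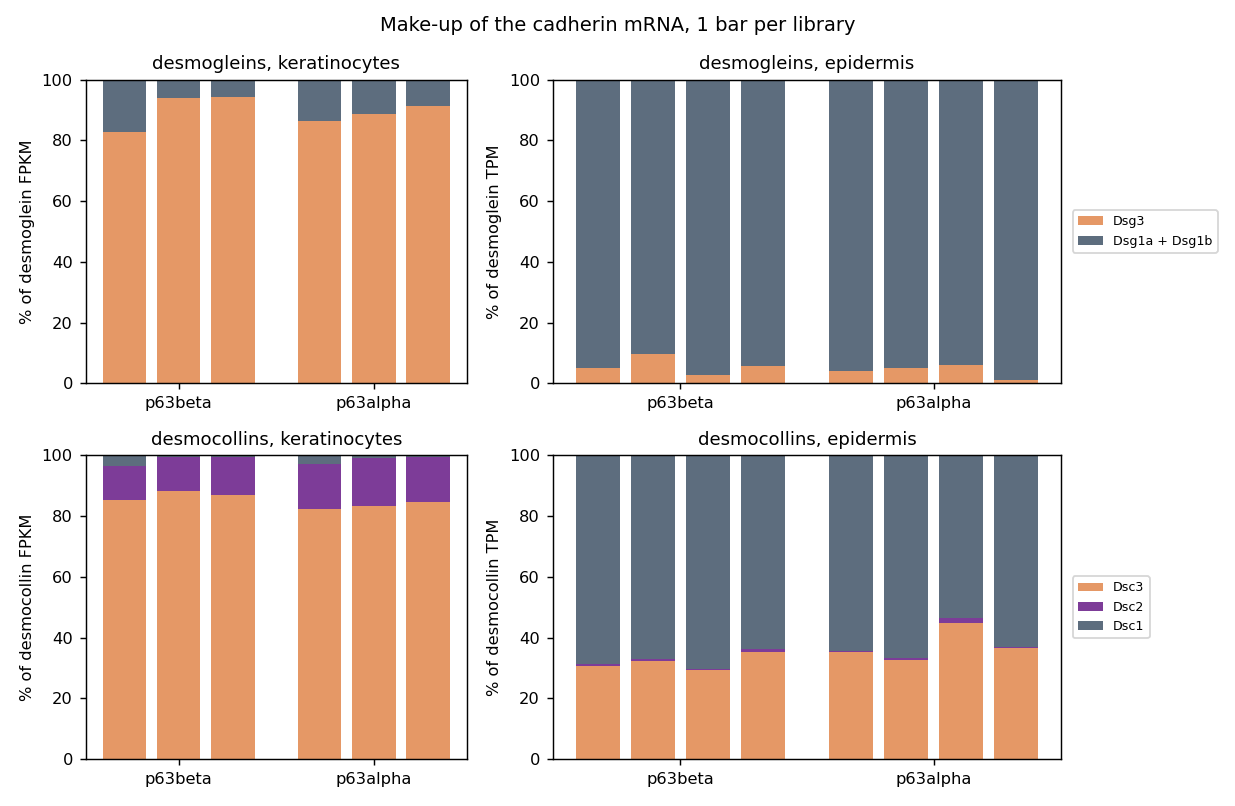
Share of each gene in the mRNA of Dsg1a, Dsg1b and Dsg3 (top) or of Dsc1, Dsc2 and Dsc3 (bottom) in every library. Values are percent of the summed FPKM (keratinocytes, left) or TPM (epidermis, right), with p63beta libraries left of p63alpha libraries in each panel. Dsg2 is not included. Dsg3 and Dsc3 lead in culture, and Dsg1a with Dsg1b and Dsc1 lead in epidermis, in both genotypes.

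In order of level per length, Pkp1 was the highest member in all 4 groups, at 405 ± 21.04 FPKM in p63beta and 528 ± 34.2 FPKM in p63alpha keratinocytes and at 1155 ± 63.1 TPM in p63beta and 1260 ± 22.2 TPM in p63alpha epidermis. Jup and Dsp came next in p63beta keratinocytes, with overlapping ranges (304 to 352 FPKM and 240 to 335 FPKM). In p63alpha keratinocytes Jup came next, and Dsc3 and Dsp overlapped after it, at 246 to 290 FPKM and 253 to 266 FPKM. Dsc1 was lowest in culture, at 3.97 ± 4.15 FPKM in p63beta and 4.54 ± 3.47 FPKM in p63alpha, where it overlapped Dsg1a. In epidermis Dsc2 was lowest, at 4.56 ± 1.60 TPM in p63beta and 5.43 ± 4.45 TPM in p63alpha. The spread between libraries of 1 group differed widely among members: the highest library exceeded the lowest by 1.116 times in p63beta and 1.117 times in p63alpha epidermis for Dsc3, and by 5.40 times in p63beta and 4.73 times in p63alpha keratinocytes for Dsc1.

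The splice forms of Dsc1, Dsc3 and Pkp3 were set apart in the epidermal transcript table. Desmocollins occur as an a form with a full cytoplasmic tail, which binds plakoglobin, and a b form whose tail is cut short by an extra exon. The b form of Dsc1 (NM_013504, with a 46-base exon at 20085835 to 20085880) encodes 832 residues, against 886 in the a form. It carried 66.0%, 81.4%, 47.1% and 56.2% of Dsc1 TPM in p63beta libraries, against 80.6%, 64.9%, 61.7% and 38.6% in p63alpha libraries. The values overlapped throughout, with means of 62.7% ± 14.7 in p63beta and 61.5% ± 17.3 in p63alpha (SD, n = 4 each, exact permutation p 0.857). The b form of Dsc3 (NM_001291809, with a 43-base exon at 19963649 to 19963691) encodes 839 residues, against 896. It carried 38.0%, 55.3%, 31.8% and 41.6% of Dsc3 TPM in p63beta libraries, against 55.1%, 41.4%, 44.96% and 39.0% in p63alpha libraries (exact permutation p 0.571). The Pkp3 form with its own first exon, NM_001162924, carried 32.1%, 34.5%, 32.4% and 43.4% of Pkp3 TPM in p63beta libraries, against 31.8%, 34.5%, 35.0% and 45.6% in p63alpha libraries (exact permutation p 0.686). The 3 two-sided tests, adjusted together, each gave 0.857, and a difference of 4 against 4 libraries cannot go below 0.0286. The 2 libraries named with the other prefix, 1 of each genotype, had the highest Pkp3 shares, 43.4% in p63beta and 45.6% in p63alpha.

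**Figure D5:**
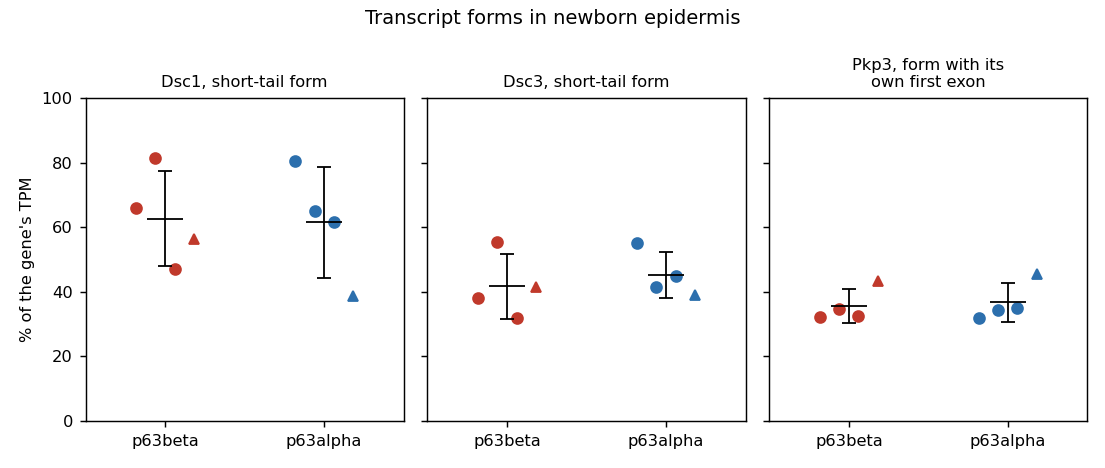
Share of the named form in the TPM of its gene in 4 p63beta and 4 p63alpha epidermis libraries, with mean ± SD; triangles are the 2 libraries with the other column-name prefix. The groups overlap for all 3 genes, and the triangles are the highest points for Pkp3, at 43.4% in p63beta and 45.6% in p63alpha.

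Other genes of cell junctions were read from lists. Of 9 other desmosome genes, 7 were tested in keratinocytes and none was called by edgeR; 5 values were negative, with a median of -0.17, and 9 were tested in epidermis with a median of -0.10 and none called. Envoplakin and periplakin, plakins of the cornified envelope that also bind desmosomes, had the lowest p in culture. Evpl had 215 ± 27.0 CPM in p63beta and 286 ± 19.2 CPM in p63alpha keratinocytes (log2 fold change -0.41 ± 0.12, edgeR adjusted p 0.521). Ppl had 324 ± 51.8 CPM in p63beta and 488 ± 96.5 CPM in p63alpha keratinocytes (-0.59 ± 0.18, edgeR adjusted p 0.575). In both, all p63beta libraries lay below all p63alpha libraries, as they did for 5.8% of all tested genes. These genes were named for their low p, and the groups overlapped for Dsg2, Pkp2, Pkp4, Perp and Kazn. In epidermis the lowest p of this list belonged to Dsg1c (-0.58 ± 0.59) and Dsg2 (-0.24 ± 0.35).

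Of 11 keratins, 9 were tested in keratinocytes, 8 of them with a negative value and a median of -0.35, and none was called. Krt6a, a keratin of activated keratinocytes, had 3300 ± 185 CPM in p63beta and 5410 ± 1072 CPM in p63alpha cells (-0.71 ± 0.17, edgeR adjusted p 0.412), and Krt17 had 7923 ± 401 CPM in p63beta and 11388 ± 2634 CPM in p63alpha cells (-0.52 ± 0.19). In epidermis, where 11 were tested, 6 values were positive and none was called, with Krt6a at 1294 ± 894 CPM in p63beta and 177 ± 136 CPM in p63alpha (2.87 ± 1.31) and Krt15, a basal keratin, at 858 ± 429 CPM in p63beta and 1565 ± 693 CPM in p63alpha (-0.87 ± 0.41). Adherens junction genes showed a median of -0.02 over 9 tested in keratinocytes and of 0.03 over 6 tested in epidermis, none called. Nectin4 had 189 ± 5.65 CPM in p63beta and 248 ± 27.6 CPM in p63alpha keratinocytes (-0.40 ± 0.10, edgeR adjusted p 0.447), and Cdh1, E-cadherin, had 1803 ± 151 CPM in p63beta and 2216 ± 241 CPM in p63alpha keratinocytes (-0.30 ± 0.12). The 2 epidermal genes of that list with the lowest p were Ctnnd1 (-0.15 ± 0.14) and Ctnna1 (0.07 ± 0.13).

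Corneodesmosomes are the modified desmosomes of the cornified layer, cut by kallikreins when scales are shed. None of their genes was called: 5 were tested in keratinocytes, with a median of -0.41, and 6 in epidermis, all with positive values and a median of 0.29. The lowest p were those of Spink5 (0.63 ± 0.34) and Ctsd (-0.41 ± 0.25) in keratinocytes and of Klk5 (0.32 ± 0.20) and Ctsd (0.28 ± 0.20) in epidermis. Of the genes of late differentiation, 10 were tested in keratinocytes and 11 in epidermis, with medians of -0.05 and 0.12 and none called. Tgm1, a cross-linking enzyme of the cornified envelope, had 110 ± 12.4 CPM in p63beta and 196 ± 40.2 CPM in p63alpha keratinocytes (-0.83 ± 0.17, edgeR adjusted p 0.305), whereas Ivl, an envelope protein, had 101 ± 27.8 CPM in p63beta and 36.6 ± 23.5 CPM in p63alpha keratinocytes (1.47 ± 0.46, edgeR adjusted p 0.575). In epidermis the lowest p were those of Sprr1a (0.94 ± 0.40) and Sprr1b (2.26 ± 1.13).

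The lists of cell type markers held no called gene in either kind of sample. In keratinocytes, the lowest p of each list were those of Ryr2 (4.98 ± 1.96) and Tnni3 (4.24 ± 1.74) for heart muscle, Dcn (3.30 ± 1.28) and Col3a1 (2.37 ± 1.03) for fibroblasts, and Pecam1 (1.85 ± 0.49) and Tie1 (1.08 ± 0.60) for endothelium, all lists with most members highest in p63beta replicate 3. They were those of Tyr (-0.66 ± 0.38) and Pmel (-0.41 ± 0.48) for melanocytes, Krt8 (0.73 ± 0.91) and Atoh1 (0.27 ± 0.45) for simple epithelial and Merkel cells, and Cdh1 and Krt14 (-0.18 ± 0.20) for keratinocytes. Cd74 (1.63 ± 0.96) was the one Langerhans and T cell marker tested in culture. In epidermis, Dct (1.02 ± 0.24, edgeR adjusted p 0.228) and Pmel (1.08 ± 0.31) had the lowest p for melanocytes, and Col1a2 (-0.91 ± 0.40) and Dcn (-0.53 ± 0.31) for fibroblasts. The others there were Tnni3 (-0.91 ± 0.64) and Tnnt2 (0.28 ± 0.36) for heart muscle, Pecam1 (0.78 ± 0.50) for endothelium, Cd3e (-0.61 ± 0.59) and Cd74 (0.35 ± 0.58) for Langerhans and T cells, Krt18 (0.64 ± 0.41) and Krt20 (-0.51 ± 0.43) for simple epithelial and Merkel cells, and Krt14 (0.74 ± 0.45) and Epcam (-0.14 ± 0.17) for keratinocytes.

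The members did not vary as 1 group among libraries. Over 6 keratinocyte libraries, the correlation with the mean standardised level of all 10 was 0.97 for Dsc3, 0.97 for Pkp1 and 0.96 for Dsc2, but 0.04 for Dsc1 and -0.19 for Dsp. Over 8 epidermis libraries it was highest for Dsg1b (0.89) and Pkp1 (0.80), and negative for Dsg3 (-0.12) and Dsc2 (-0.24). The genes outside the set whose levels were most like that mean were Sppl3 (0.99), Ptpmt1, Ablim1, Nuak1 and Map7 among 10054 genes in keratinocytes and Sppl3 (0.98), Tmem63a, Klhl8, Arl4d and Slc35f2 among 9966 genes in epidermis. Each member is part of the mean with which it was compared, which raises its own correlation. Dsc3, Pkp1 and Dsc2 are also the genes whose genotype groups were separate in keratinocytes. All these correlations are descriptions over few libraries that share a genotype split, and the highest of many correlations is high by selection.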

How the data were processed

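RNA was measured in 6 keratinocyte and 8 epidermis libraries (TruSeq Stranded mRNA, per the labels). Keratinocyte files deposited by the authors hold counts per gene from featureCounts 1.5.2 (reverse-stranded, minimum overlap 25 bases, per the file headers) and FPKM. Epidermis files deposited by the authors hold expected counts and TPM per gene and transcript from Salmon, per the submitters' processing notes, on mm10. Expected counts were rounded, which altered 4.88% of values. The authors' deposited DESeq2 tables hold log2 fold changes and adjusted p-values, version not given in the sources used here. Their epidermis column heads read WT against KO; the sign equalled that of p63beta over p63alpha for 99.6% of genes. Their 14 normalised per-library columns were left aside. Epidermis columns named WT or KO were read as p63alpha and p63beta and carry no replicate number that matches a sample.

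Each kind of sample was fitted with edgeR 4.0.16 (TMM, filterByExpr, robust quasi-likelihood) in R 4.3.3, with adjustment by Benjamini and Hochberg over all genes, and the 2 kinds together for the interaction over genes of both tables. DESeq2 1.42.0 and limma 3.58.1 on log2(value + 1) or log2(value + 0.1) were alternatives. The fits were tested on simulated data. Standard errors cover the spread between libraries, and the depth (20688027 to 44909629 per library) bounds the counting error. In keratinocytes, same-numbered libraries deviated together for replicates 1 and 2 (correlations 0.58 and 0.50 over 12631 genes). For replicate 3 the correlation was 0.161. That was about the same as for p63beta 2 with p63alpha 3 (0.164) and p63beta 3 with p63alpha 2 (0.158). The remaining unlike-numbered pairs gave -0.51 to -0.24. The labels do not explain the replicate number, and its pairing of replicate 3 is uncertain. It was fitted as a block only as an alternative. Promoters are RefSeq's (GRCm38.p6), and exons, windows and coding sequence come from GENCODE M21 on GRCm38. The members and lists were chosen with earlier results of these data known. All 10 members are named, and of each other list every called gene and the 2 genes with the lowest p in each kind of sample. Likeness was computed for genes with a mean of at least 5 CPM.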

Additional observations from a re-analysis of the deposited data

Results flagged for a closer look

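Of 26 groups of 4 epidermis libraries examined (10 genes and 3 transcript shares in each genotype), 3 held a library far from the others, judged by its gap to the nearest value over the range of the group. Chance alone gives about 1 in 20. Dsc1 was at 1033 CPM in 1 p63alpha library, against 1614 to 1718 CPM in the other 3. The same p63alpha library had the low value for Pkp3, 483 CPM against 546 to 558 CPM. Dsc2 was at 6.23 CPM in 1 p63beta library, against 14.5 to 15.6 CPM in the other 3 p63beta libraries.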

How the results depend on the processing

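In keratinocytes, 14 genes were called, and 11 to 15 under other scaling, no filter, no robust estimation and limma. DESeq2 called 216, the replicate block 37, and that block without pair 1, 2 or 3 called 585, 0 and 1. Leaving out any 1 of the 6 libraries gave 1 to 4. In epidermis, 32 genes were called, 155 by DESeq2, 8 in the libraries with EP column names alone, 10 to 28 with 1 library left out (10 without p63alpha EP07) and 24 to 38 in the other alternatives. DESeq2 called 2 members in keratinocytes and 1 in epidermis. The interaction called 0 genes in all 17 alternatives. Across 16 alternatives each, the log2 fold change was -0.91 to -0.62 for Dsc2, -0.36 to -0.23 for Dsc3 and -0.44 to -0.32 for Pkp1 in keratinocytes, and -0.58 to -0.44 for Dsc3 in epidermis. The replicate block kept every sign, with a member median of -0.33 against -0.26. The cause of the differences between tools was not tested. No paired analysis was possible in epidermis because the columns carry no shared replicate numbers.

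Signs turned for values near 0 or with a wide error, none called. With 1 library left out, the value of Dsc1 in keratinocytes ranged from -1.51 to 0.58, and its interaction from -0.73 to 1.37. In epidermis the same range was -0.34 to 0.55 for Dsc2, -0.14 to 0.057 for Pkp1 and -0.10 to 0.066 for Dsp. Dsc2 in epidermis was also 0.047 with the prefix as a term and 0.032 by limma on log2(TPM + 0.1), a scale that moved the median of all genes by -0.10. The share of the Dsc1 b form differed by -4.25 percentage points in the EP libraries alone and by -6.40 to 7.59 with 1 library left out, and that of the Pkp3 form by -3.72 to 1.86. The interaction leave-outs and all share alternatives were chosen after seeing the data. The lowest count of a member in a library was 144, for Dsc1 in keratinocytes and Dsc2 in epidermis, where counting error is widest.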
